A study of Rattus norvegicus with 8 samples.

Results

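The genes described here are the voltage-gated ion channels and their relatives that were measured in the trigeminal nerve of 4 rat strains. They were picked by symbol: every gene on the array with a symbol starting with Kcn, Hcn, Cacn or Scn was taken, except Scn7a. This choice was made with earlier results of these data known. The rule gave 120 genes with 125 probes, of 13337 genes with a symbol and 22523 probes on the array. The name is wider than the label, because the prefixes also cover 14 inward rectifiers (Kcnj), 10 K2P leak channels (Kcnk), 3 small or intermediate calcium-activated channels (Kcnn), 3 epithelial sodium channel subunits (Scnn1) and many accessory subunits. It also takes in Scnm1, a splicing factor that modifies a sodium channel phenotype in mice, and Kcnrg, a regulator of potassium channels.

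RNA pooled from the trigeminal nerves of untreated rats, 85 days old, was hybridised to Illumina RatRef-12 bead arrays, with 1 array for the females and 1 for the males of each strain. BDIX and BDIV are the parental strains. BDIX.BDIV-Mss4a and, as a second line, BDIX.BDIV-Mss4d are congenic strains, called Mss4a and Mss4d below, and carry BDIV alleles at the Mss4 locus on a BDIX background. BDIX rats are known for malignant tumours of the trigeminal nerve after exposure to ethylnitrosourea, to which BDIV rats are resistant, and no rat here was exposed. Each array is a pool of an unstated number of animals, so p-values measure the spread between 2 pools per strain of opposite sex, and strain and array batch cannot be told apart.

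Voltage-gated channels open and close with the membrane potential and so carry the action potential: sodium channels start it, potassium channels end it and set how often it can repeat, and calcium channels couple it to transmitter release and gene expression. Each has pore-forming alpha subunits and accessory subunits that steer its traffic and gating. In the trigeminal system the neurons have their cell bodies in the ganglion and their axons in the nerve. Sodium channels cluster there at the nodes of Ranvier, and some Kv1 channels lie under the myelin beside them. Inward rectifiers and K2P leak channels hold the resting potential and are also found in glia, vessels and epithelia.

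Between 47.7% and 54.3% of all probes were above background on an array, and median bead signals ran from 80.2 to 145. Myelinating Schwann cell genes were bright on every array, and so were genes of sensory neurons, which include transcripts of the cell body such as Isl1 and Rbfox3. Some arrays also carried genes of other tissues. The 6 thyroid genes summed to 5550 in the female and 76388 in the male Mss4d pool, against 119 to 217 in the other 6 pools. For 10 nasal and salivary genes it was 6686 and 6072 in the Mss4a pools and 11006 in the Mss4d male pool against 1171 to 2487 in the other 5. The 4 pituitary genes summed to 6440 in the BDIX female and 8737 in the Mss4a female pool, against 107 to 1974 elsewhere. For 12 granulocyte and red cell genes it was 10373 and 14387 in the BDIV pools, against 38715 to 51792 elsewhere. In these mixed samples, fewer cells of a type and less RNA per cell cannot be told apart.

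Of the 120 genes, 80 were above background (a detection p under 0.05) on 2 or more arrays, through 84 probes, and 40 were not. The 84 probes are 67.2% of the 125, against 58.2% of all probes. All values below are log2 intensities after background correction and quantile normalization, given as the female pool and then the male pool of a strain, and a difference of 1 is a doubling. A probe's level cannot be set against that of another probe, so only strains are compared. Of the 84 probes, 48 were above background on all 8 arrays.

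The undetected genes fell in many families. They were Scn4a, the skeletal muscle sodium channel, Scn9a and the beta subunit Scn2b, the calcium channel pores Cacna1a and Cacna1e, and the calcium channel accessory genes Cacna2d2, Cacna2d4, Cacng1, Cacng4, Cacng5, Cacng6, Cacng7 and Cacng8. Among potassium channels they were Kcna3, Kcna7, Kcnh3, Kcnh4, Kcnh5, Kcnq3, Kcnf1, Kcng3, Kcng4, Kcns2, Kcnv2, Kcne1, Kcne4, the BK pore Kcnma1 with Kcnmb3, and Kcnrg. The inward rectifiers Kcnj1, Kcnj2, Kcnj10, Kcnj15 and Kcnj16, the leak channels Kcnk5, Kcnk9, Kcnk13 and Kcnk18, the pacemaker channel Hcn4 and the epithelial subunit Scnn1b completed the 40. Scn9a is known as a main sodium channel of pain-sensing neurons, so a probe at background is a limit of this measurement and does not show that the gene is silent.

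At the edge of the detection rule, Kcne2, Kcnab2 and a Kcnh8 probe were above background on exactly 2 arrays, and Kcne4, Kcnj2, Kcnj16 and Scnn1b on 1. Scnn1b read 4.60 to 4.90 on 7 arrays and 9.24 in the Mss4d male pool. Kcnj16 read 4.66 to 5.13 on 7 arrays and 8.56 in the same pool. That pool also had the highest thyroid sum, 76388, and the highest nasal and salivary sum, 11006. The part of RNA from these tissues in the Scnn1b and Kcnj16 values was not tested.

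The strains differed in many of these genes. In limma's test of any strain difference, 41 of the 84 probes (48.8%, 40 genes) passed an adjusted p under 0.05, against 39.9% of all 13114 tested probes. Each of the 41 also passed in at least 1 pair of strains, and 6 further probes passed in a pair only. Both BDIV pools lay above all 6 other pools in 31 of the 84 probes, against 18.9% of all probes, and below them in 11, against 20.4% of all. For Mss4a the counts were 10 above (11.5% of all probes) and 5 below (11.8%), for Mss4d 6 above (7.92%) and 5 below (8.27%), and for BDIX 2 above (8.06%) and 6 below (6.28%). Without the BDIV female pool, and likewise without the BDIV male pool, all channel calls of any strain difference ended. Nearly all such calls over the whole array ended too.

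**Figure D1:**
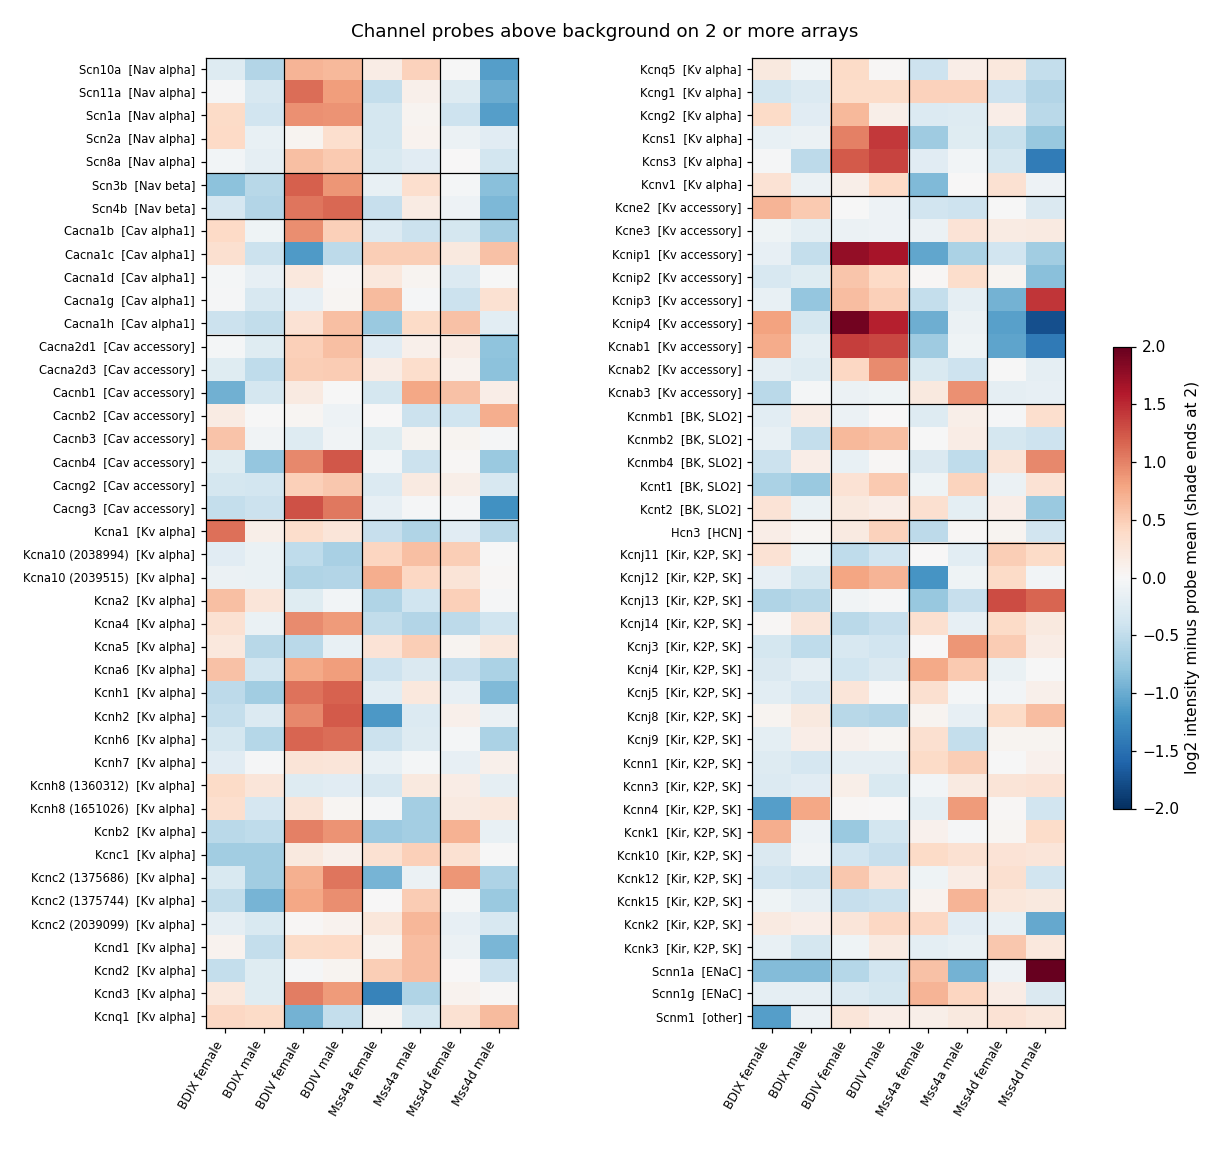
Log2 intensity of the 84 channel probes above background on 2 or more arrays, minus the mean of each probe over the 8 arrays, with 1 column per array and probes ordered by channel class (probe numbers in parentheses where a gene has several). Both BDIV columns lie above all other columns in 31 rows and below them in 11.

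In BDIV nerve, 4 of 7 detected sodium channel subunits, 2 of 4 KChIP accessories of Kv4 channels, 3 of 6 ether-a-go-go probes and 3 of 5 modifier subunits were higher than in BDIX. Between these strains 25 of 84 probes passed, against 21% of all probes: 22 were higher in BDIV (10% of all probes) and 3 lower (11% of all). The median difference of the 84 probes was 0.38, against -0.03 over all probes, and 64 were positive and 20 negative. More than a 2-fold difference was seen in 20 probes (23.8%), against 14.4% of all. These calls ended without the BDIV female, the BDIV male or the BDIX female pool, where nearly all calls over the whole array ended too. Without the BDIX male pool some of the calls remained.

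**Figure D2:**
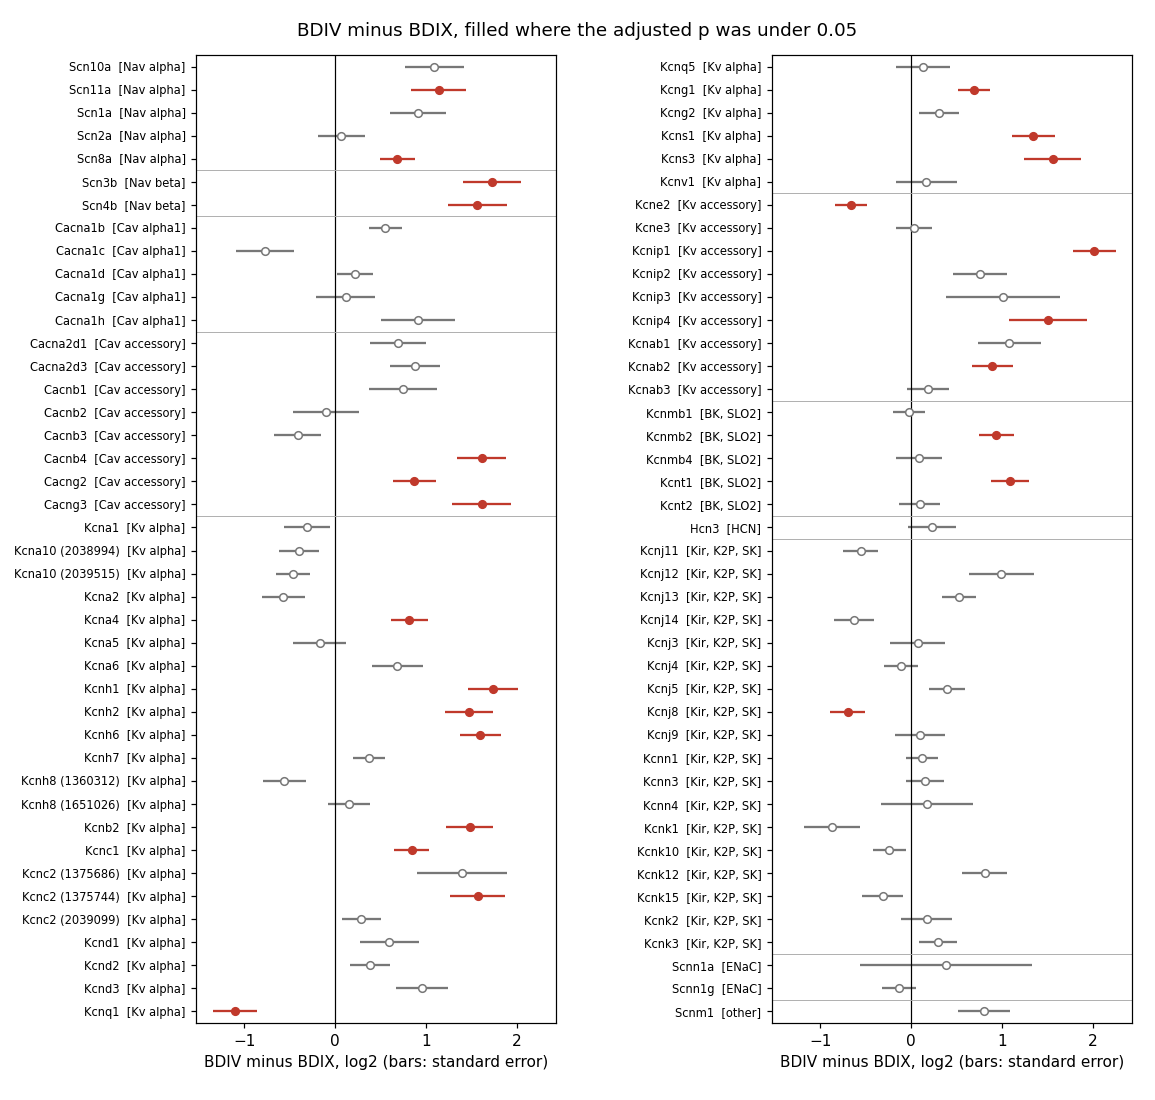
BDIV minus BDIX on the log2 scale for the 84 probes, with the standard error of the fit as bars and filled red points where the adjusted p was under 0.05. The filled points are 22 to the right of 0 and 3 to the left, and none of the 5 calcium channel pores or 2 epithelial sodium channel subunits is filled.

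Sodium channels carry the upstroke of the action potential. All 5 detected alpha subunits were positive in BDIV minus BDIX, with a median of 0.92, and 2 passed. Scn11a encodes Nav1.9, a persistent current of small-diameter sensory neurons, and read 10.47 and 10.17 in BDIX, 11.60 and 11.32 in BDIV, 10.01 and 10.60 in Mss4a and 10.23 and 9.496 in Mss4d. It was higher in BDIV than in BDIX by 1.14 ± 0.31 (adjusted p = 0.0399). Scn8a, which encodes the nodal channel Nav1.6, read 5.15 and 5.02 in BDIX, 5.81 and 5.73 in BDIV, 4.90 and 4.97 in Mss4a and 5.21 and 4.83 in Mss4d, close to background outside BDIV, and was higher in BDIV than in BDIX by 0.68 ± 0.19 (adjusted p = 0.045), where 1 of the 2 BDIX pools was above background.

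Scn10a encodes Nav1.8, the other sodium channel typical of pain-sensing neurons, and read 13.02 and 12.69 in BDIX, 13.96 and 13.93 in BDIV, 13.43 and 13.75 in Mss4a and 13.28 and 12.18 in Mss4d. Its BDIV pools were above all others, but BDIV minus BDIX was 1.09 ± 0.33 (adjusted p = 0.0543). It passed only against Mss4d, by -1.22 ± 0.33 (adjusted p = 0.0304) in Mss4d minus BDIV, where the Mss4d pools themselves were 13.28 and 12.18 and differed more than any other strain's. Scn1a, which encodes Nav1.1 of large axons, read 9.74 and 8.98 in BDIX, 10.28 and 10.27 in BDIV, 9.01 and 9.42 in Mss4a and 8.95 and 8.27 in Mss4d, with BDIV minus BDIX 0.92 ± 0.31 (adjusted p = 0.0754). Scn2a read between 5.24 and 6.004 on the 8 arrays and passed in no comparison.

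Both detected beta subunits, which anchor and tune the alpha subunits, were higher in BDIV. Scn3b read 10.15 and 10.43 in BDIX, 12.17 and 11.86 in BDIV, 10.83 and 11.31 in Mss4a and 10.95 and 10.15 in Mss4d, a difference of 1.73 ± 0.32 (adjusted p = 0.0137). Scn4b, which promotes resurgent sodium current, read 11.07 and 10.82 in BDIX, 12.48 and 12.55 in BDIV, 10.94 and 11.57 in Mss4a and 11.30 and 10.504 in Mss4d, a difference of 1.56 ± 0.32 (adjusted p = 0.0188). For both genes the BDIV pools stood above the 6 others.

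Among the 28 probes of voltage-gated potassium channel alpha subunits, 10 were higher in BDIV than in BDIX and 1 was lower, with a median of 0.49. The ether-a-go-go family, which carries slow outward currents, gave 3 of the 10. Kcnh1 (Kv10.1) read 7.83 and 7.66 in BDIX, 9.43 and 9.53 in BDIV, 8.15 and 8.56 in Mss4a and 8.18 and 7.47 in Mss4d, and was higher in BDIV by 1.74 ± 0.28 (adjusted p = 0.01). Kcnh2, the ERG channel known from heart repolarisation, read 5.496 and 5.70 in BDIX, 6.94 and 7.20 in BDIV, 4.83 and 5.70 in Mss4a and 6.08 and 5.87 in Mss4d, and was higher by 1.48 ± 0.27 (adjusted p = 0.0132). Kcnh6, another ERG channel, read 7.80 and 7.59 in BDIX, 9.32 and 9.27 in BDIV, 7.73 and 7.89 in Mss4a and 8.11 and 7.53 in Mss4d, and was higher by 1.60 ± 0.22 (adjusted p = 0.00771). In these 3 genes the BDIV pools were above all other pools. Kcnh7 read 4.93 to 5.41 and the 2 Kcnh8 probes 4.70 to 5.93, and neither gene passed in any comparison.

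Modifier subunits do not form channels alone but join Kv2 subunits and change their gating. Of 10 such genes 5 were detected, and 3 were higher in BDIV than in BDIX. Kcns3 read 10.60 and 10.10 in BDIX, 11.84 and 11.97 in BDIV, 10.39 and 10.56 in Mss4a and 10.27 and 9.23 in Mss4d, a difference of 1.56 ± 0.32 (adjusted p = 0.0178). Kcns1, whose variants are known to alter pain sensitivity, read 6.68 and 6.71 in BDIX, 7.84 and 8.24 in BDIV, 6.12 and 6.59 in Mss4a and 6.38 and 6.08 in Mss4d, a difference of 1.34 ± 0.24 (adjusted p = 0.0124). The third, Kcng1, read 7.23 and 7.32 in BDIX, 7.97 and 7.96 in BDIV, 8.05 and 8.05 in Mss4a and 7.18 and 7.001 in Mss4d. It was higher in BDIV than in BDIX by 0.69 ± 0.18 (adjusted p = 0.0349), and both Mss4a pools were above all others by a small margin. Kcng2 read 4.56 to 5.74 and Kcnv1 4.68 to 5.96, and neither passed.

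Kcnb2 (Kv2.2), a partner of these modifiers, read 5.07 and 5.10 in BDIX, 6.62 and 6.503 in BDIV, 4.87 and 4.92 in Mss4a and 6.31 and 5.46 in Mss4d. It was above background on both BDIV and both Mss4d arrays and on no array of BDIX or Mss4a, so BDIV was at least 2.62-fold higher than BDIX (measured means 6.56 and 5.08; adjusted p = 0.0123). Kv3 channels allow fast repeated firing. Kcnc1 (Kv3.1) read 6.499 and 6.49 in BDIX, 7.38 and 7.29 in BDIV, 7.49 and 7.67 in Mss4a and 7.49 and 7.18 in Mss4d, with both BDIX pools below all 6 others, and BDIV minus BDIX was 0.84 ± 0.19 (adjusted p = 0.0256). Kcnc2 (Kv3.2) has 3 probes that did not give the same call. The first, ILMN_1375744, read 9.31 and 8.87 in BDIX, 10.58 and 10.74 in BDIV, 9.81 and 10.31 in Mss4a and 9.76 and 9.05 in Mss4d, and was higher in BDIV by 1.57 ± 0.30 (adjusted p = 0.0158). The second, ILMN_1375686, had a difference of 1.40 ± 0.498 (adjusted p = 0.0879), and the third, ILMN_2039099, one of 0.29 ± 0.21 (adjusted p = 0.372).

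Kv4 channels give the fast transient A-type current, and KChIP proteins bind them, bring them to the membrane and set their inactivation. The KChIP gene Kcnip1 had the widest margin of all channel genes relative to its error. It read 6.44 and 6.13 in BDIX, 8.36 and 8.25 in BDIV, 5.56 and 5.97 in Mss4a and 6.22 and 5.90 in Mss4d. The BDIV pools stood more than 1.8 log2 units above the highest other pool, and BDIV minus BDIX was 2.02 ± 0.23 (adjusted p = 0.0059), a 4.05-fold difference. Kcnip4 read 7.81 and 6.65 in BDIX, 8.92 and 8.55 in BDIV, 6.02 and 6.88 in Mss4a and 5.91 and 5.23 in Mss4d. It was higher in BDIV by 1.51 ± 0.43 (adjusted p = 0.0479), although the BDIX pools themselves were more than 1 log2 unit apart.

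Of the other KChIP genes, Kcnip2 had a difference of 0.76 ± 0.30 (adjusted p = 0.109). Kcnip3, which also acts as a calcium-dependent repressor of transcription, had one of 1.01 ± 0.63 (adjusted p = 0.296) and read 8.22 in the Mss4d male pool against 5.85 in the female pool. The Kv4 pores themselves did not pass between BDIV and BDIX. Kcnd3 (Kv4.3) read 9.30 and 8.86 in BDIX, 10.12 and 9.94 in BDIV, 7.76 and 8.49 in Mss4a and 9.17 and 9.12 in Mss4d, with BDIV minus BDIX 0.95 ± 0.29 (adjusted p = 0.0561). Kcnd1 (Kv4.1) was positive in that comparison too, at 0.59 ± 0.33 (adjusted p = 0.237), and Kcnd2 (Kv4.2) is given with Mss4a below.

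The promoter sequences of 3 of the genes higher in BDIV, on 3 chromosomes, are shown because these genes had among the clearest differences in their families. They are Kcnip1 of the KChIPs, Kcns3 of the modifiers and Kcnh1 of the ether-a-go-go family, and the inward rectifier Kcnj13, which was highest in Mss4d, stands beside them. Each line is 300 bases from RefSeq (GRCr8), 5′ to 3′ on the gene's strand, around the transcript start that the promoter table gives for the gene. The Kcnj13 window lies inside the annotated span of the gene, 95509228 to 95528400, which holds other transcripts, so it is not at the outer end of that span. Kcnip1 lies at chr10:19092976-19093275 (minus strand), Kcns3 at chr6:39584056-39584355 (minus), Kcnh1 at chr13:106252966-106253265 (plus) and Kcnj13 at chr9:95518937-95519236 (minus). Capitals mark matches to short motifs, searched on both strands. The GC box was GGGCGG, known to bind Sp1. The TATA box, which places the start of transcription, was searched as TATAAA. The E box letters were CACGTG, a site of MYC and its relatives. For the CRE core, a site of cAMP-regulated factors, the letters TGACG were used.
Kcnip1: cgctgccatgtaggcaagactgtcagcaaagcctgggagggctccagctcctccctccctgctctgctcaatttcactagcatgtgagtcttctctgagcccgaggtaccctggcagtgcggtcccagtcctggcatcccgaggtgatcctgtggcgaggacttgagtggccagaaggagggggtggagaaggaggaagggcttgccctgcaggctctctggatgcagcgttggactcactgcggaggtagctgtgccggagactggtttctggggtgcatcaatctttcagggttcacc
Kcns3: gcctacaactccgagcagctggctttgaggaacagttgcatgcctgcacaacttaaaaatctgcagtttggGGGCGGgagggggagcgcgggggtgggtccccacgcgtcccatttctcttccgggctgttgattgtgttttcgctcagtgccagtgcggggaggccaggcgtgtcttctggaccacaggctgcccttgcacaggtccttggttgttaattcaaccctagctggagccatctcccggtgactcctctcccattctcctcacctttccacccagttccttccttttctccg
Kcnh1: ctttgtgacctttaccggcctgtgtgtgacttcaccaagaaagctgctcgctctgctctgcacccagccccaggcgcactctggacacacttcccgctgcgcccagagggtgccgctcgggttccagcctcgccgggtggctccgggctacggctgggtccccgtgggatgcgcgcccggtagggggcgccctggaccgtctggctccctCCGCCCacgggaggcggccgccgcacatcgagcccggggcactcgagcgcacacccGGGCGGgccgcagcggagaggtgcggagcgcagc
Kcnj13: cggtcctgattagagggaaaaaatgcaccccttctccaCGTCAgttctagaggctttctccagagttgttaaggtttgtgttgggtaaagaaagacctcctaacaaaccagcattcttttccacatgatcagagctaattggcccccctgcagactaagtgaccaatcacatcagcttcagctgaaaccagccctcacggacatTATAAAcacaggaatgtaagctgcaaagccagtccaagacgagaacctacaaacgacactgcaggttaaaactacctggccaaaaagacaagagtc

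These 4 windows do not share a motif. Kcns3 holds 1 GC box and Kcnh1 holds 2, Kcnj13 holds a TATA box and a CRE core, and none of the 4 motifs is in the Kcnip1 window. Of the 120 channel genes 81 had an entry in the promoter table, and 50.6% of the 81 windows held a GC box, against 34.9% of all 27457. A TATA box was in 3.7% of them (14.3% of all), an E box in 3.7% (6.65% of all) and a CRE core in 21% (22% of all). Of the 22 genes higher in BDIV than in BDIX 16 had an entry, and 50% held a GC box, 6.25% a TATA box, 6.25% a CRE core and 0% an E box.

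Kv beta subunits bind Kv1 channels from the inside. Kcnab2 was above background on the BDIV arrays only, at 5.02 and 4.93 in BDIX, 5.61 and 6.14 in BDIV, 4.89 and 4.78 in Mss4a and 5.19 and 5.03 in Mss4d, so BDIV was at least 1.62-fold higher than BDIX (measured means 5.87 and 4.98; adjusted p = 0.0341). Kcnab1 read 8.25 and 7.31 in BDIX, 8.89 and 8.84 in BDIV, 6.79 and 7.42 in Mss4a and 6.45 and 6.09 in Mss4d, with the BDIV pools highest and the Mss4d pools lowest, and BDIV minus BDIX was 1.08 ± 0.34 (adjusted p = 0.0647). Kcnab3 read 4.91 to 6.35 and passed in no comparison.

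The Kv1 family, of which some members lie beside the nodes of myelinated axons, had a median of -0.31 over 7 probes, and 1 passed. This was Kcna4 (Kv1.4), which read 5.67 and 5.23 in BDIX, 6.31 and 6.22 in BDIV, 4.88 and 4.78 in Mss4a and 4.84 and 4.96 in Mss4d and was higher in BDIV by 0.82 ± 0.20 (adjusted p = 0.0308). Kcna1 (Kv1.1) and Kcna2 (Kv1.2), the 2 main juxtaparanodal channels, had differences of -0.31 ± 0.25 (adjusted p = 0.427) and -0.57 ± 0.24 (adjusted p = 0.131). Kcna6 read 5.96 and 5.01 in BDIX, 6.13 and 6.21 in BDIV, 4.97 and 5.08 in Mss4a and 4.92 and 4.74 in Mss4d and Kcna5 from 5.497 to 6.56, and neither passed here.

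The other channel genes higher in BDIV belong to activated potassium channels and calcium channel accessories. Kcnt1, a sodium-activated potassium channel, read 5.51 and 5.40 in BDIX, 6.43 and 6.66 in BDIV, 6.05 and 6.58 in Mss4a and 6.02 and 6.42 in Mss4d. Its BDIX pools were below all others, and BDIV minus BDIX was 1.09 ± 0.21 (adjusted p = 0.0158). Kcnmb2, a BK beta subunit that inactivates the channel, read 6.36 and 6.03 in BDIX, 7.15 and 7.11 in BDIV, 6.499 and 6.66 in Mss4a and 6.15 and 6.10 in Mss4d, a difference of 0.94 ± 0.19 (adjusted p = 0.0186). Kcnt2 (4.77 to 5.83) and Kcnmb1 (4.92 to 5.51) passed in no comparison.

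Of the 8 detected calcium channel accessory probes, 3 were higher in BDIV. Cacnb4, a cytoplasmic beta subunit that brings pores to the membrane, read 5.83 and 5.30 in BDIX, 7.04 and 7.32 in BDIV, 6.03 and 5.65 in Mss4a and 6.11 and 5.33 in Mss4d, a difference of 1.61 ± 0.27 (adjusted p = 0.0112). Cacng3 read 6.27 and 6.32 in BDIX, 8.02 and 7.80 in BDIV, 6.59 and 6.73 in Mss4a and 6.72 and 5.54 in Mss4d, a difference of 1.61 ± 0.33 (adjusted p = 0.0178). Its relative Cacng2, or stargazin, read 8.63 and 8.62 in BDIX, 9.46 and 9.52 in BDIV, 8.71 and 9.16 in Mss4a and 9.10 and 8.66 in Mss4d, a difference of 0.87 ± 0.24 (adjusted p = 0.0425). Both are known mainly for escorting AMPA receptors. The alpha2delta genes Cacna2d1, the target of gabapentin, and Cacna2d3 had differences of 0.69 ± 0.31 (adjusted p = 0.157) and 0.88 ± 0.28 (adjusted p = 0.0627). Cacnb1, Cacnb2 and Cacnb3 passed in no comparison.

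None of the 5 detected calcium channel pores passed between BDIV and BDIX, where 2 of them had an unadjusted p under 0.05. Cacna1b, the N-type pore of nerve terminals, read 5.69 and 5.21 in BDIX, 6.23 and 5.78 in BDIV, 5.03 and 4.87 in Mss4a and 4.95 and 4.62 in Mss4d, with BDIV minus BDIX 0.55 ± 0.18 (adjusted p = 0.0716). Cacna1c, the L-type pore of muscle and many other cells, read 9.72 and 8.97 in BDIX, 8.27 and 8.88 in BDIV, 9.89 and 9.89 in Mss4a and 9.60 and 9.98 in Mss4d, with -0.77 ± 0.32 (adjusted p = 0.131). Cacna1h, a T-type pore, had 0.91 ± 0.41 (adjusted p = 0.153). Cacna1d (4.98 to 5.47) and Cacna1g (4.77 to 5.82) lay near background.

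Only 3 probes were lower in BDIV than in BDIX. Kcnq1, whose product forms slow potassium channels in heart and epithelia, read 6.58 and 6.55 in BDIX, 5.23 and 5.69 in BDIV, 6.21 and 5.82 in Mss4a and 6.48 and 6.80 in Mss4d, a difference of -1.11 ± 0.24 (adjusted p = 0.0229). Kcne2, an accessory subunit of KCNQ and ERG channels, was above background on the BDIX arrays only, at 5.86 and 5.69 in BDIX, 5.16 and 5.07 in BDIV, 4.79 and 4.75 in Mss4a and 5.16 and 4.88 in Mss4d. BDIV was at least 1.503-fold lower than BDIX (measured means 5.11 and 5.77; adjusted p = 0.0399). Kcnj8 (Kir6.1), the ATP-sensitive channel of smooth muscle and pericytes, read 6.06 and 6.19 in BDIX, 5.45 and 5.41 in BDIV, 6.06 and 5.83 in Mss4a and 6.38 and 6.62 in Mss4d, a difference of -0.70 ± 0.19 (adjusted p = 0.0444). The summed level of the 5 smooth muscle and pericyte genes was 1112 to 1149 in BDIV and 2320 to 3129 in the other pools. Of the 5, 1 was higher (10% of all probes) and 1 lower (11% of all) in BDIV than in BDIX. Their part in the Kcnj8 value was not tested.

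**Figure D3:**
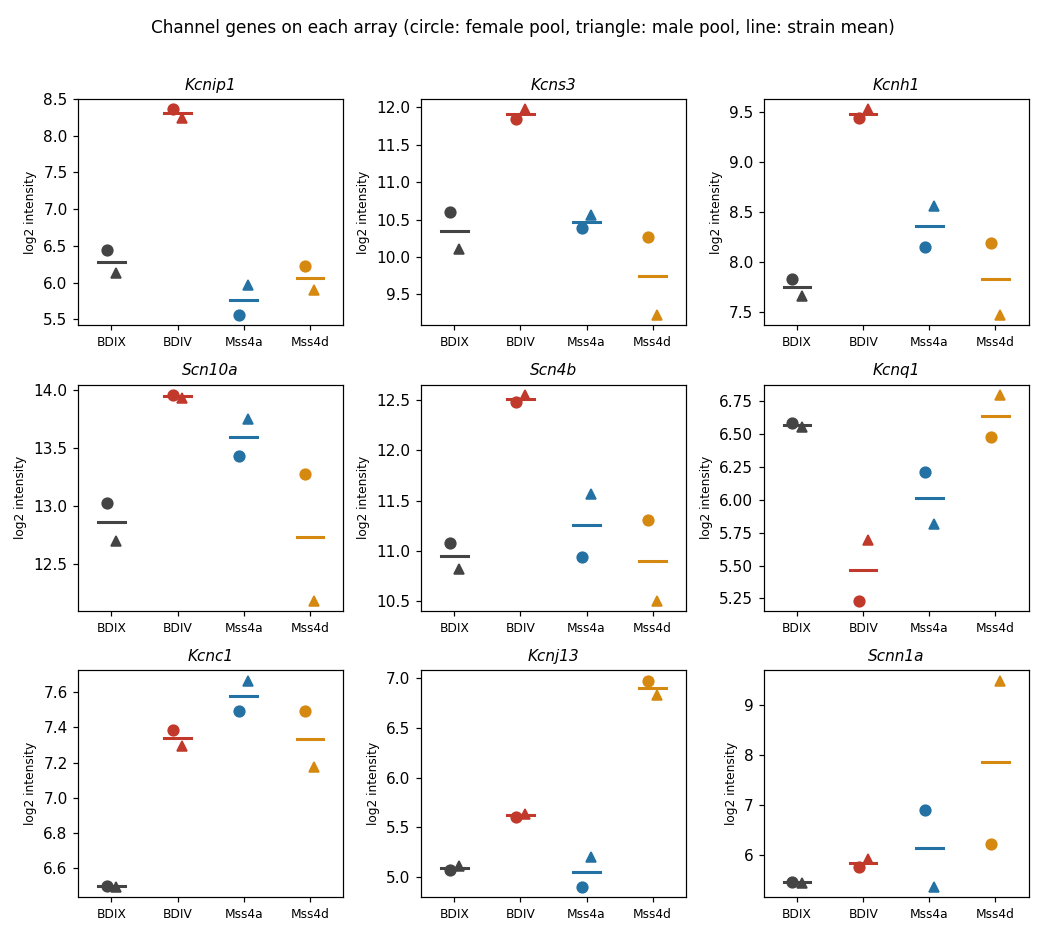
Log2 intensity of 9 channel genes on each of the 8 arrays (circles are female pools, triangles male pools, lines strain means). Kcnip1, Kcns3, Kcnh1, Scn10a and Scn4b are highest in both BDIV pools, Kcnq1 is lowest there, Kcnc1 is lowest in BDIX, Kcnj13 is highest in both Mss4d pools, and Scnn1a reaches 9.495 in the Mss4d male pool.

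Both congenic strains differed from BDIV in many channel genes, and in many probes of the whole array. The 2 comparisons share the BDIV arrays, so each is given by its own values. In Mss4a minus BDIV, 30 of 84 probes (35.7%) passed, a share near the 33.1% of all probes. Of the 30, 8 were higher in Mss4a (16.8% of all) and 22 lower (16.3% of all). The median of the 84 was -0.34. In Mss4d minus BDIV, 33 (39.3%) passed, against 30% of all. Of the 33, 9 were higher (14.9% of all) and 24 lower (15.1% of all). The median of the 84 was -0.30. With arrays scaled to their medians 41 probes passed in Mss4a minus BDIV, 4 of them higher, against 45.9% of all probes. The median of all probes was then -0.46. With the authors' values 30 passed, 13 of them higher, against 32.5% of all. Without either BDIV pool most calls ended in both comparisons, among the channel probes and over all probes. Fewer channel probes, and fewer of all probes, passed in the first without the Mss4a female pool and in the second without the Mss4d male pool.

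Many of the genes named above as high in BDIV were lower in a congenic strain, but Kcnc1, Kcnt1 and Cacng2 passed as lower in neither. The genes were named for high values on the same BDIV arrays, so lower values in a congenic strain follow in part from that choice. Kcnip1 was -2.54 ± 0.23 (adjusted p = 0.00179) in Mss4a minus BDIV and -2.24 ± 0.23 (adjusted p = 0.00245) in Mss4d minus BDIV, and these were the only 2 of the 141 called differences, over all comparisons, that kept an adjusted p under 0.05 whichever of the 8 arrays was omitted. Kcnip4 was -2.29 ± 0.43 (adjusted p = 0.00917) and -3.17 ± 0.43 (adjusted p = 0.00388), and Kcnab1 -1.76 ± 0.34 (adjusted p = 0.0103) and -2.59 ± 0.34 (adjusted p = 0.00366). Kcns3 was -1.44 ± 0.32 (adjusted p = 0.0149) and -2.16 ± 0.32 (adjusted p = 0.00489), and Kcns1 -1.68 ± 0.24 (adjusted p = 0.00413) and -1.81 ± 0.24 (adjusted p = 0.00347).

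In the ether-a-go-go family Kcnh1 was -1.13 ± 0.28 (adjusted p = 0.022) and -1.65 ± 0.28 (adjusted p = 0.00707). Of the sodium channels, Scn11a was -1.16 ± 0.31 (adjusted p = 0.0274) in Mss4a and -1.60 ± 0.31 (adjusted p = 0.0104) in Mss4d, Scn1a was -1.06 ± 0.31 (adjusted p = 0.0374) and -1.67 ± 0.31 (adjusted p = 0.00942), and Scn4b was -1.26 ± 0.32 (adjusted p = 0.0252) and -1.61 ± 0.32 (adjusted p = 0.0123). Scn3b passed against Mss4d, at -1.47 ± 0.32 (adjusted p = 0.0154), and not against Mss4a, at -0.95 ± 0.32 (adjusted p = 0.0566). Kcnd3 passed against Mss4a, at -1.90 ± 0.29 (adjusted p = 0.00493), and not against Mss4d, at -0.89 ± 0.29 (adjusted p = 0.0554). The congenic strains did not pass against each other in these 2 genes: Mss4a minus Mss4d was 0.52 ± 0.32 (adjusted p = 0.343) for Scn3b and -1.01 ± 0.29 (adjusted p = 0.105) for Kcnd3.

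Several of these genes were not above background in the congenic strains, so the fold is a lower bound. BDIV was at least 1.77-fold higher than Mss4a and at least 1.997-fold higher than Mss4d for Kcna4 (measured means 6.27, 4.83 and 4.90). For Kcna6 the bounds were at least 1.65-fold and at least 1.87-fold (means 6.17, 5.02 and 4.83). For the N-type pore Cacna1b they were at least 1.47-fold and at least 1.67-fold (means 6.004, 4.95 and 4.78), with adjusted p = 0.0071 and adjusted p = 0.0051. These 3 genes had measurable levels in both BDIV pools.

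The genes higher in a congenic strain than in BDIV included inward rectifiers, leak channels and the L-type pore. Cacna1c was 1.31 ± 0.32 (adjusted p = 0.0217) in Mss4a minus BDIV and 1.21 ± 0.32 (adjusted p = 0.03) in Mss4d minus BDIV. Kcna10, a Kv1 relative known from kidney and inner ear, has 2 probes with like values. ILMN_2039515 read 5.53 and 5.52 in BDIX, 5.05 and 5.07 in BDIV, 6.38 and 6.07 in Mss4a and 5.91 and 5.67 in Mss4d, and Mss4a was at least 2.05-fold higher than BDIV, where the probe was not above background (measured means 6.22 and 5.06; adjusted p = 0.00564). The other, ILMN_2038994, read 5.53 and 5.63 in BDIX, 5.25 and 5.11 in BDIV, 6.19 and 6.37 in Mss4a and 6.26 and 5.75 in Mss4d, with 1.10 ± 0.22 (adjusted p = 0.0112) in Mss4a minus BDIV and 0.83 ± 0.22 (adjusted p = 0.0302) in Mss4d minus BDIV.

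Among inward rectifiers, Kcnj11 (Kir6.2), the pore of the ATP-sensitive channel, read 6.64 and 6.27 in BDIX, 5.85 and 5.96 in BDIV, 6.37 and 6.14 in Mss4a and 6.85 and 6.74 in Mss4d and was 0.89 ± 0.19 (adjusted p = 0.0165) in Mss4d minus BDIV. Kcnj14 read 6.75 and 6.96 in BDIX, 6.19 and 6.27 in BDIV, 7.04 and 6.56 in Mss4a and 7.10 and 6.92 in Mss4d and was 0.78 ± 0.22 (adjusted p = 0.0359) in the same comparison, where Kcnj8 was 1.07 ± 0.19 (adjusted p = 0.00877). Kcnj12 ran the other way, at 7.09 and 6.91 in BDIX, 8.05 and 7.95 in BDIV, 6.08 and 7.17 in Mss4a and 7.65 and 7.21 in Mss4d, and was -1.37 ± 0.36 (adjusted p = 0.0258) in Mss4a minus BDIV. The summed level of 7 endothelial genes was 5301 to 6280 in BDIV and 7711 to 10696 in the other pools, and its part in the inward rectifier values was not tested.

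The leak channel Kcnk15 read 5.41 and 5.31 in BDIX, 5.03 and 5.07 in BDIV, 5.56 and 6.17 in Mss4a and 5.71 and 5.69 in Mss4d, and Mss4a was at least 1.61-fold higher than BDIV (measured means 5.87 and 5.05; adjusted p = 0.0309). Kcnk2 (TREK-1), opened by stretch and lipids, read 9.67 and 9.63 in BDIX, 9.74 and 9.91 in BDIV, 9.91 and 9.27 in Mss4a and 9.34 and 8.46 in Mss4d and was -0.92 ± 0.28 (adjusted p = 0.0476) in Mss4d minus BDIV, where the Mss4d male pool was the lowest. Kcnk1 (TWIK-1) read 13.67 and 12.84 in BDIX, 12.20 and 12.56 in BDIV, 13.02 and 12.91 in Mss4a and 12.97 and 13.31 in Mss4d, and its BDIV pools were below all others without passing in any comparison. Kcnq1 was 1.18 ± 0.24 (adjusted p = 0.0137) in Mss4d minus BDIV and 0.55 ± 0.24 (adjusted p = 0.122) in Mss4a minus BDIV.

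Against BDIX, the Mss4a pools were higher in 7 probes (4.78% of all probes) and lower in 3 (7.46% of all), 10 of 84 in all, against 12.2% of all probes. With arrays scaled to their medians 1 of 12 called probes was higher (30.5% of all probes called), and with the authors' values 16 of 17 (15.7%). The balance of directions in this comparison therefore depends on the scaling. These calls ended without either BDIV pool, the BDIX female pool or either Mss4a pool, where most calls over the whole array ended too. Some of them remained without the BDIX male pool or either Mss4d pool.

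The Kv3 gene Kcnc1 was 1.08 ± 0.19 (adjusted p = 0.0229) in Mss4a minus BDIX. Kcnd2 (Kv4.2) read 5.41 and 5.65 in BDIX, 5.87 and 5.95 in BDIV, 6.38 and 6.500 in Mss4a and 5.89 and 5.47 in Mss4d and was 0.91 ± 0.22 (adjusted p = 0.0411), Kcng1 was 0.78 ± 0.18 (adjusted p = 0.0372) and Kcnt1 0.86 ± 0.21 (adjusted p = 0.0443). Kcnj4 read 5.91 and 6.01 in BDIX, 5.79 and 5.91 in BDIV, 6.96 and 6.72 in Mss4a and 6.06 and 6.19 in Mss4d and was 0.88 ± 0.19 (adjusted p = 0.0317), with both Mss4a pools above all others. Kcnn1 (SK1), which shapes the afterhyperpolarisation, read 5.88 and 5.80 in BDIX, 5.96 and 5.96 in BDIV, 6.52 and 6.62 in Mss4a and 6.14 and 6.22 in Mss4d and was 0.74 ± 0.17 (adjusted p = 0.0406). The epithelial subunit Scnn1g read 6.02 and 6.01 in BDIX, 5.93 and 5.85 in BDIV, 6.88 and 6.63 in Mss4a and 6.35 and 5.91 in Mss4d and was 0.74 ± 0.19 (adjusted p = 0.0497). The nasal and salivary genes were also high in both Mss4a pools, with summed levels of 6686 and 6072, and their part in the Scnn1g value was not tested. These 7 genes all lost their call when arrays were scaled to their medians.

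Lower in Mss4a than in BDIX were Kcne2, Kcna1 and Kcna2, none of them above background in Mss4a. Kcna1 read 6.42 and 5.44 in BDIX, 5.68 and 5.56 in BDIV, 4.86 and 4.72 in Mss4a and 5.09 and 4.79 in Mss4d, and Mss4a was at least 1.40-fold lower than BDIX (measured means 4.79 and 5.93; adjusted p = 0.0348). Kcna2 read 5.90 and 5.54 in BDIX, 5.05 and 5.24 in BDIV, 4.69 and 4.89 in Mss4a and 5.77 and 5.27 in Mss4d, and Mss4a was at least 1.21-fold lower (measured means 4.79 and 5.72; adjusted p = 0.0488). For Kcne2 the bound was at least 1.25-fold (measured means 4.77 and 5.77; adjusted p = 0.0226). The 12 myelinating Schwann cell genes summed to 128622 to 173834 in BDIX and 110481 to 121199 in Mss4a. By the same test 6 of the 12 were lower in Mss4a than in BDIX (7.46% of all probes) and none higher (4.78% of all). Their sums were 69627 to 84701 in BDIV and 130734 to 132403 in Mss4d. Kcna1 was above background in both BDIV pools and no Mss4d pool, and Kcna2 in 1 BDIV pool and both Mss4d pools. The part of these cells in the Kcna1 and Kcna2 values was not tested.

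Between Mss4d and BDIX only the inward rectifier Kcnj13 passed, 1 of 84 against 5.34% of all probes, and it was higher in Mss4d (1.38% of all), while 0 were lower (3.96% of all). It was also the only channel probe that passed between the congenic strains (1.22% of all probes), lower in Mss4a (0.923% of all). Kcnj13 (Kir7.1) is known from transporting epithelia such as the retinal pigment epithelium, choroid plexus and thyroid. It read 5.07 and 5.11 in BDIX, 5.60 and 5.64 in BDIV, 4.90 and 5.20 in Mss4a and 6.97 and 6.83 in Mss4d, with both Mss4d pools far above the 6 others. It was above background on the Mss4d and BDIV arrays, and on no BDIX or Mss4a array.

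Mss4d was at least 3.31-fold higher than BDIX (measured means 6.90 and 5.09; adjusted p = 0.0132) and at least 2.75-fold higher than Mss4a (measured means 6.90 and 5.05; adjusted p = 0.0158). Mss4d minus BDIV was 1.28 ± 0.19 (adjusted p = 0.005). The thyroid sum was 5550 in the Mss4d female pool and 76388 in the male pool, while Kcnj13 was -0.15 in male minus female there, and the part of thyroid RNA was not tested. The call against BDIX ended without the BDIV female, the BDIV male, the BDIX female or the Mss4d male pool, and that against Mss4a without either BDIV pool, either Mss4a pool or the Mss4d male pool, and with the authors' values. Without the Mss4d male pool the female pool alone gave 1.95 above BDIX and 1.98 above Mss4a. With arrays scaled to their medians 11 channel probes passed in Mss4d minus BDIX, 6 of them higher, against 20.8% of all probes. In Mss4a minus Mss4d 17 passed, all lower, against 50.9% of all probes. The median of all probes in that comparison was then -0.65.

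Among the 84 tested probes, the largest difference between the pools of a strain was in Scnn1a, the alpha subunit of the epithelial sodium channel. It read 5.46 and 5.45 in BDIX, 5.75 and 5.92 in BDIV, 6.91 and 5.37 in Mss4a and 6.23 and 9.495 in Mss4d. Male minus female was 3.27 in Mss4d and -1.54 in Mss4a, the only channel probe with differences over 1 in opposite directions, against 0.572% of all probes. Over both pools, Mss4d minus BDIX was 2.41 ± 0.94 (adjusted p = 0.16). The Mss4d male pool also held the highest thyroid sum (76388) and the highest nasal and salivary sum (11006), and their part was not tested.

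No channel probe passed in male minus female (0% of all probes passed). An unadjusted p under 0.05 was found in 4 of 84 (4.76%), against 4.01% of all probes. None passed under any alternative processing that kept all 8 arrays, with 0 to 5 under that unadjusted p. Within strains, the male pool was the lower one in 62 of 84 probes in Mss4d (73.8%, against 56.6% of all probes) and in 61 in BDIX (72.6%, against 53.2%). In Mss4a it was the lower one in 27 (32.1%, against 50.0% of all) and in BDIV in 42 (50.0%, against 49.6%). The SD of male minus female over the 84 probes was 0.67 in Mss4d (0.51 over all probes), 0.47 in Mss4a (0.49), 0.44 in BDIX (0.51) and 0.22 in BDIV (0.22). Each strain has 1 pool per sex, so these differences were not tested and cannot be told apart from differences between pools.

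Presence on one strain's arrays and absence on another's was recorded for 22 of the 84 probes, against 16.5% of all probes, meaning 2 arrays above background in one strain and 0 in another. Dim probes enter only where they are above background somewhere, so part of this count follows from the detection rule. Besides those given above they were Cacna1d, Hcn3, Kcne3, Kcnj3, Kcnn3, Kcnk3, Kcnk12, Kcnh7, Kcng2 and a Kcnh8 probe, all with lower bounds under 1.5-fold or none. The pacemaker channel Hcn3, which opens on hyperpolarisation, read 5.18 and 5.09 in BDIX, 5.22 and 5.51 in BDIV, 4.52 and 5.07 in Mss4a and 5.10 and 4.66 in Mss4d and passed in no comparison. Other members that passed in no comparison were Kcnq5 (5.77 to 6.63), a slow M-type channel, Kcnmb4 (7.14 to 8.61), a neuronal BK beta subunit, the splicing factor Scnm1 (6.03 to 7.42), the calcium channel beta subunit Cacnb1 (5.66 to 7.40), Kcnn3 (5.06 to 5.66) and Kcne3 (5.02 to 5.49). The same held for the inward rectifiers Kcnj5 (4.82 to 5.48) and Kcnj9 (5.73 to 6.53) and the intermediate calcium-activated channel Kcnn4 (6.39 to 8.35).

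Of the 120 genes, 8 lie on rat chromosome 6, where the Mss4 locus was mapped, by the GRCr8 annotation. The undetected Kcnk13, Kcnh5, Kcnf1 and Kcng3 make up 4 of them. Of the other 4, Kcns3 was highest in BDIV and not in the congenic strains. Kcnk10 (TREK-2) read 5.66 and 5.88 in BDIX, 5.57 and 5.49 in BDIV, 6.33 and 6.25 in Mss4a and 6.21 and 6.20 in Mss4d, and it was 0.76 ± 0.18 (adjusted p = 0.0198) in Mss4a minus BDIV and 0.68 ± 0.18 (adjusted p = 0.0305) in Mss4d minus BDIV. Against BDIX it did not pass, at 0.52 ± 0.18 (adjusted p = 0.102) in Mss4a and 0.44 ± 0.18 (adjusted p = 0.18) in Mss4d. Kcnk12 read 4.94 and 4.90 in BDIX, 5.87 and 5.59 in BDIV, 5.24 and 5.46 in Mss4a and 5.64 and 4.93 in Mss4d and Kcnk3 5.04 and 4.85 in BDIX, 5.11 and 5.38 in BDIV, 4.996 and 5.04 in Mss4a and 5.73 and 5.39 in Mss4d, and neither passed. The bounds of the congenic segments were not used here.

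Genes that work with these channels showed both directions between BDIV and BDIX. Over all tested probes, 10% were higher in BDIV than in BDIX and 11% were lower. Of 11 detected trafficking and modulating partners 4 were higher in BDIV and 0 lower, with a median of 0.60. They were Fgf12 (2.25) and Fgf13 (1.63), which bind sodium channel tails, Dpp6 (1.11), which joins Kv4 channels with the KChIPs, and Akap6 (1.33), a kinase anchor. Of 14 detected anchors of axonal and nodal channels 4 were higher and 4 lower. Lgi2 (2.47), Lgi3 (1.52), the nodal spectrin Sptbn4 (1.36) and Cntnap4 (1.21) were higher. Gldn (-1.91) and Lgi4 (-1.30), both Schwann cell products, Dlg1 (-1.89) and Nfasc (-0.93) were lower.

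The sensory channels of the TRP and acid-sensing families start the currents that Nav channels amplify. Of 8 such genes 2 were higher in BDIV (10% of all probes) and 0 lower (11% of all). These were Trpa1 (1.37), the irritant receptor, and Asic3 (1.29). The sodium pump, which restores the gradients that channels spend, had 1 of 9 higher, Atp1b1 (0.82), and 2 lower, Atp1b2 (-1.12) and Fxyd6 (-1.16). For 9 genes these counts are near the shares over all probes.

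Cell type markers moved beside the channel genes. Of 22 sensory neuron genes 10 were higher in BDIV than in BDIX (10% of all probes) and 0 lower (11% of all). The median of these genes was 1.01, against 0.38 for the channel probes. Their summed level was 186219 to 188515 in BDIV and 106028 to 137657 in the other pools, and 21 or 22 of the 22 were above background on every array. Thy1 (1.76), Gal (1.59), Rbfox3 (1.42) and Calcb (1.51) had the smallest p-values. Of 12 myelinating Schwann cell genes 0 were higher and 7 lower, and their summed level was 69627 to 84701 in BDIV and 110481 to 173834 elsewhere. Among these Sox10 (-1.73), Cnp (-1.83), Gldn and Mbp (-1.54) had the smallest p-values. Of 12 granulocyte and red cell genes 0 were higher and 8 lower in BDIV than in BDIX, with a median of -2.78. Their part in the channel values was not tested.

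The central and satellite glia genes, which bear on how much root or ganglion a sample holds, summed to 9024 to 16692 in BDIV, 3927 to 7856 in BDIX, 10973 to 28777 in Mss4a and 4560 to 10067 in Mss4d. The BDIV pools were above the BDIX pools without overlap. Of the 11 detected genes 1 was higher in BDIV than in BDIX (10% of all probes) and 0 lower (11% of all). Their median difference was 1.12, in the same direction as the channel median of 0.38, and their part in it was not tested. The part of a larger share of neuronal RNA in the BDIV channel values was not tested. Scn7a, left out by the rule and known as a sodium-sensing channel of Schwann cells, read 12.18 and 11.85 in BDIX, 11.67 and 11.58 in BDIV, 11.10 and 10.77 in Mss4a and 10.94 and 10.18 in Mss4d.

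**Figure D4:**
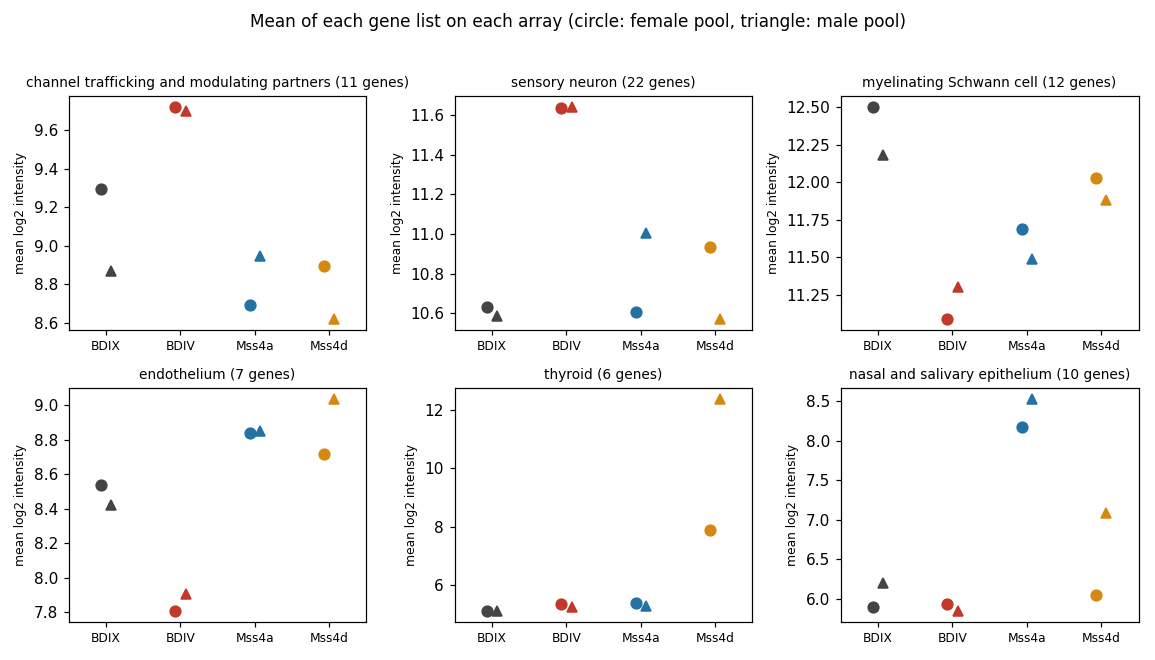
Mean log2 intensity of 6 gene lists on each array (circles are female pools, triangles male pools). The channel partners and sensory neuron genes are highest in both BDIV pools and the myelinating Schwann cell and endothelial genes lowest there, while thyroid genes are high in both Mss4d pools and nasal and salivary genes in both Mss4a pools and the Mss4d male pool.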

How the data were processed

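Pooled trigeminal nerve RNA was measured on 8 Illumina RatRef-12 arrays, 1 per strain and sex. The deposited bead intensity values and detection p-values per probe came from GenomeStudio, per the labels and the series' design text. The authors' deposited values follow a straight line of the unnormalized ones per array. Floored at 1 and put on the log2 scale with an offset of 16, they served as an alternative. Intensities were background-corrected and quantile-normalized with limma's neqc (limma 3.58.1, R 4.3.3, offset 16, negative controls inferred from detection p-values) and put on the log2 scale. Of 22523 probes, 13114 with detection p under 0.05 on at least 2 arrays were tested with limma (lmFit, eBayes) in 1 model with strain and sex, leaving 3 residual degrees of freedom. Benjamini-Hochberg adjustment ran over all tested probes, and an adjusted p under 0.05 was called. The model was tested on simulated data. A probe below background on both arrays of a strain has only a bound there: an "at least" fold sets the brighter mean against the higher of the lowest detected signal and the probe's own value. Genes are named from the platform table, and all 120 symbols matched GRCr8. Every member past the threshold is named, with the widest-ranging members of each family. The members and gene lists were chosen with earlier results of these data known. Depth is not defined for arrays, and their number limits precision. Alternatives changed the scaling, background correction, detection filter, variance model, sex term and input values, and left out each array.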

Additional observations from a re-analysis of the deposited data

Results flagged for a closer look

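Scnn1a, the alpha subunit of the epithelial sodium channel, differed between the sexes in opposite directions in the congenic strains. The male pool was 3.27 (log2) above the female pool in Mss4d, and male minus female was -1.54 in Mss4a. Each strain has 1 pool per sex, so the difference between the strains was not tested. In the Mss4d male pool the summed level of 10 nasal and salivary genes was 11006 and that of 6 thyroid genes was 76388. Their part in the Scnn1a values was not tested.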

How the results depend on the processing

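None of the 141 called differences of channel probes reversed under another scaling, filter, background correction, variance model or without an array. Part of this outcome was fixed in advance. The 41 calls of any strain difference rest on a range of strain means, which is never negative and cannot reverse. A difference between 2 strains also stays the same when an array of another strain is left out. With detection p under 0.01 on all 8 arrays required, 23 channel probes were called for any strain difference, against 54.5% of all probes. In Mss4a minus BDIX the counts were 5 of 36 channel probes with that filter (16.2% of all probes) and 4 without background correction (10.6%). With the authors' values 17 were called (15.7%), and with a trended robust variance 6 (12.03%). In Mss4d minus BDIX the counts were 11 with arrays scaled to their medians (20.8%) and 2 with the stricter filter (9.84%). They were 3 without the sex term (5.44%), 2 with the authors' values (4.42%) and 3 with the trended variance (5.86%). In Mss4a minus Mss4d the counts were 17 with median scaling (50.9%) and 2 without the sex term (1.97%). With the authors' values in limma 0 were called there (0.297%), and 18 had an unadjusted p under 0.05. Under the stricter filter 36 channel probes were tested. In Mss4a minus BDIV 16 were called (41.1% of all probes), 14 of them also called before. In Mss4d minus BDIV 21 were called (38.9% of all), 17 of them also called before. The cause of the other changes was not tested. With 1 array left out, counts ran from 0 to 41 for any strain difference, 0 to 29 for BDIV minus BDIX, 0 to 5 for Mss4a minus BDIX, 0 to 5 for Mss4d minus BDIX, 0 to 2 for Mss4a minus Mss4d, 2 to 32 for Mss4a minus BDIV, 1 to 36 for Mss4d minus BDIV and 0 to 0 for male minus female. The lone array left in a strain was then assumed to vary like the others. Median scaling moved the median of all probes by -0.65 in Mss4a minus Mss4d, -0.44 in Mss4a minus BDIV, -0.37 in Mss4a minus BDIX, 0.24 in Mss4d minus BDIX and 0.11 in Mss4d minus BDIV. The labels give no replicate numbers, and pools were matched across strains by sex alone, through the sex term. Without that term 139 of the 141 differences kept their call, and Kcna1 in Mss4a minus BDIV and Kcnk2 in Mss4d minus BDIV lost it. Of the 84 probes, 25 were below background on both arrays of at least 1 strain and have only a bound there.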
